A study of Mus musculus with 8 samples.

Results

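The 10 genes described here encode the enzymes of glycolysis from glucose phosphate isomerase to pyruvate kinase: Gpi1, Aldoa, Aldoc, Tpi1, Gapdh, Pgk1, Pgam1, Eno1b, Eno2 and Pkm. They were chosen by name, as the enzymes of consecutive steps of the pathway other than phosphofructokinase, and all 10 of 10 were found among the 20254 genes of the deposited table and passed the filter on low values, which left 15381 tested genes. The libraries come from polyadenylated RNA of mouse nephron progenitor cells at embryonic day 17.5, sorted from dissociated kidneys by green fluorescence. In 4 mutant libraries the cells were homozygous for deletion of Vhl in the nephron progenitors (VHLNP-/-), and in 4 control libraries they were heterozygous for it (VHLNP+/-). Both groups carry the Six2EGFPcre transgene, in which Six2 regulatory sequence drives a fusion of GFP and Cre recombinase, so the controls also carry Cre and are labelled as lacking 1 Vhl copy in these cells. The labels do not say whether libraries of a group came from separate embryos or pools, and the spread behind each p-value may be partly technical. The deletion depends on Cre in Six2-expressing cells, and the sort kept GFP-positive cells only.

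Glycolysis splits glucose into pyruvate in the cytosol. Gpi1 converts glucose-6-phosphate to fructose-6-phosphate, aldolase cleaves fructose-1,6-bisphosphate into a pair of triose phosphates, and Tpi1 interconverts these. Gapdh, Pgk1, Pgam1, enolase and pyruvate kinase then oxidise and dephosphorylate them in turn, with ATP made at the Pgk1 and pyruvate kinase steps. Vhl is the substrate receptor of a ubiquitin ligase that marks hypoxia-inducible factor (HIF) alpha subunits for degradation, and many genes of this pathway are textbook HIF targets. Nephron progenitors of the cap mesenchyme are known for a high use of glycolysis, which bears on the balance of self-renewal and differentiation that the series set out to examine.

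Reads assigned to genes numbered between 37252683 and 46515762 per library. Levels are given as normalised reads, which are reads divided by the size factor of the library. Vhl had 320.2, 284.7, 331.2 and 335.9 normalised reads in mutants 1 to 4, against 1134, 1379, 1208 and 1180 in controls 1 to 4, so each library matched its genotype label (two-sided exact permutation p = 0.0286 over 70 relabellings). The progenitor markers Six2, Cited1, Sall1, Pax2, Eya1, Wt1, Itga8 and Crym were not called different, while Meox1 and Osr1 were lower in mutants. The call of Osr1 did not hold when any of 6 single libraries was left out (limma adjusted p up to 0.138). The 10 markers summed to between 120266 and 131312 normalised reads in mutants and between 125093 and 139032 in controls. Mutant 2 had 51.9 and control 2 had 8.84 normalised reads of Xist, against at least 60017 in each of the other libraries. Mutant 2 and control 3 deviated alike from their group means across genes (Pearson r = 0.57, genes not being independent replicates).

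Transcripts of the whole stretch from Gpi1 to Pkm were higher in mutants, with Eno2 as the exception. Of the 10 genes, 9 rose, 0 fell and 1 had no call from limma at an adjusted p under 0.05, where 5.4% of all tested genes rose, 3.03% fell and 8.43% changed in either direction. The authors' deposited table also has 9 of the 10 as risen, where 7.12% of its genes with an adjusted p rose and 12.5% changed in either direction. For each of the 9 the lowest mutant library lay above the highest control library, an arrangement seen for 8.54% of tested genes, or 15.3% in either direction. The median log2 fold change of the 10 genes was 1.52, against -0.01 over all tested genes. Fold changes are mutant over control and come from log2(normalised reads + 1), where the added 1 has almost no effect at the levels of these genes. The 9 risen transcripts lay between the 30th and the 196th largest of the 15381 log2 fold changes.

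The 10 genes together took 1.61% ± 0.0953 of all reads in mutants and 0.518% ± 0.0438 in controls (SD, n = 4 each). The share was 1.64%, 1.67%, 1.47% and 1.65% in mutants 1 to 4, against 0.462%, 0.556%, 0.549% and 0.505% in controls 1 to 4. In raw reads this was between 604378 and 776820 per mutant library and between 192067 and 238667 per control library, so counting error is small beside the spread between libraries for all members other than Aldoc and Eno2. By mean normalised reads Pkm was the 5th most abundant gene of the table in mutants and the 46th in controls, and Pgk1 the 11th and the 198th.

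**Figure D1:**
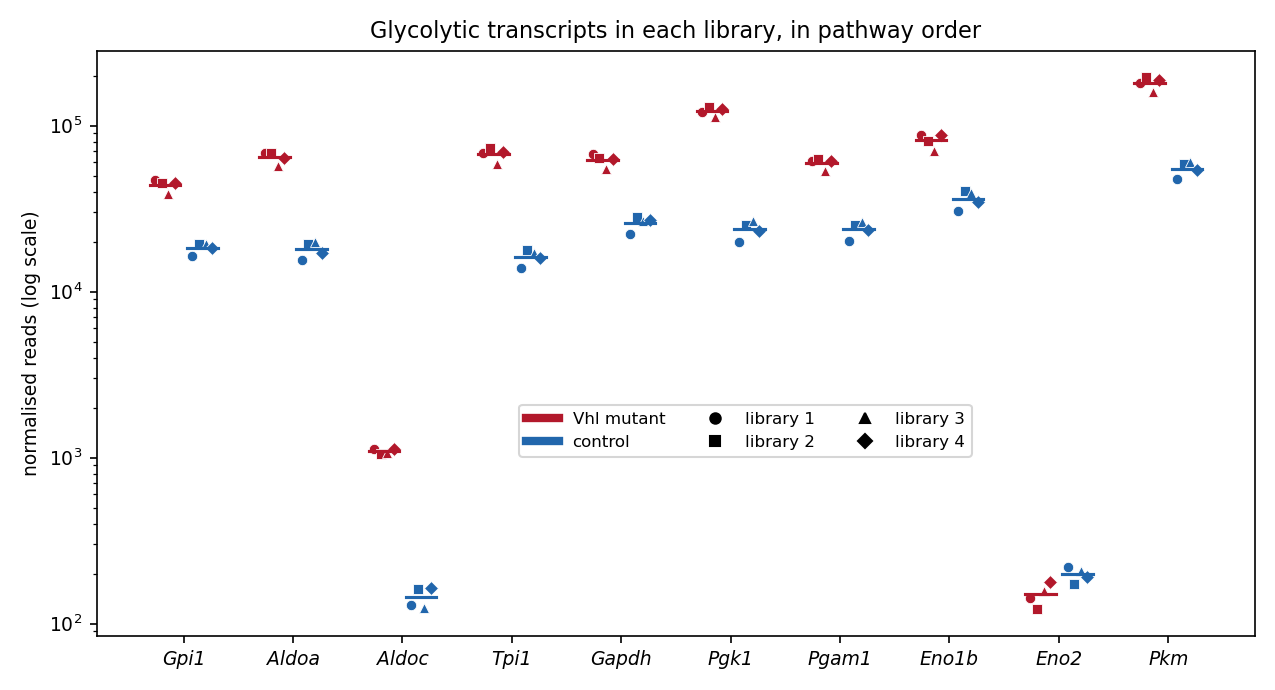
Normalised reads (log axis) of the 10 genes in each library, mutants left of controls; symbols mark the library number and the bars the group means. All 4 mutant libraries lie above all 4 control libraries for 9 genes, and the groups overlap for Eno2.

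At the first step, Gpi1 (ENSMUSG00000036427, chromosome 7 from 34201330 to 34230336 of mm10, 18 exons) had 47309, 45276, 38736 and 45119 normalised reads in mutants 1 to 4, against 16387, 19391, 19421 and 18199 in controls 1 to 4. The groups do not overlap, and mutant 3 was the lowest mutant library. Gpi1 rose 2.40-fold (95% interval 2.13 to 2.71, limma adjusted p = 1.04e-06). Gpi1 also acts outside the cell as a cytokine-like protein, and it was among the less abundant of these transcripts for its length.

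Both aldolase genes rose, and the minor isozyme rose more. Aldoa (ENSMUSG00000030695, chromosome 7 from 126795234 to 126800751), the aldolase of muscle and most embryonic tissues, had 68263, 68412, 57389 and 63636 normalised reads in mutants 1 to 4, against 15470, 19411, 19853 and 17054 in controls 1 to 4. It rose 3.60-fold (95% interval 3.14 to 4.12, limma adjusted p = 1.14e-07). Aldoc (ENSMUSG00000017390, chromosome 11 from 78322968 to 78327781), the isozyme best known from brain, had 1130, 1047, 1072 and 1128 normalised reads in mutants 1 to 4, against 129.1, 161, 124.2 and 163.3 in controls 1 to 4. The coefficient of variation in mutants was 3.79%, the smallest of the 10 genes, and the groups do not overlap. Aldoc rose 7.59-fold (95% interval 6.46 to 8.91, limma adjusted p = 9.19e-09), the largest rise of the 10.

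The log2 ratio of Aldoc to Aldoa within a library averaged -5.88 ± 0.12 in mutants and -6.95 ± 0.26 in controls (SD, n = 4 each). The difference of 1.08 is a further 2.11-fold shift toward Aldoc (two-sided exact permutation p = 0.0286, which no arrangement of 4 against 4 libraries can go below, and 0.0286 adjusted over 9 ratios).

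Triosephosphate isomerase and the dehydrogenase that follows it changed by different amounts. Tpi1 (ENSMUSG00000023456, chromosome 6 from 124810586 to 124814296) had 67961, 73362, 58685 and 69283 normalised reads in mutants 1 to 4, against 13900, 17823, 17011 and 15906 in controls 1 to 4, and rose 4.17-fold (95% interval 3.64 to 4.78, limma adjusted p = 4.22e-08). Gapdh (ENSMUSG00000057666, chromosome 6 from 125161715 to 125166467), which oxidises glyceraldehyde-3-phosphate and yields NADH, had 67400, 63525, 54494 and 62985 in mutants 1 to 4, against 22262, 28320, 26541 and 26905 in controls 1 to 4. Gapdh rose 2.39-fold (95% interval 2.09 to 2.73, limma adjusted p = 2.91e-06). The Gapdh to Tpi1 log2 ratio was -0.12 ± 0.08 in mutants and 0.69 ± 0.05 in controls (SD, n = 4 each), so that Gapdh had fewer reads than Tpi1 in each mutant library and more in each control library.

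Pgk1 (ENSMUSG00000062070, chromosome X from 106187100 to 106203699), the first ATP-making step, showed the largest rise among the abundant members. It had 120256, 129588, 113308 and 124951 normalised reads in mutants 1 to 4, against 19795, 25308, 26623 and 23072 in controls 1 to 4. It rose 5.17-fold (95% interval 4.51 to 5.93, limma adjusted p = 1.45e-08). Of the libraries with almost no Xist reads, mutant 2 was the highest mutant library for this X-linked gene and control 2 lay inside the control range. The log2 fold change of Pgk1 was 2.37, and 2.38 with both of these libraries left out.

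Pgam1 (ENSMUSG00000011752, chromosome 19 from 41911923 to 41918660), which moves the phosphate of 3-phosphoglycerate to the neighbouring carbon, had 61291, 62736, 53561 and 61549 normalised reads in mutants 1 to 4, against 20262, 25224, 26315 and 23454 in controls 1 to 4. It rose 2.52-fold (95% interval 2.21 to 2.87, limma adjusted p = 1.55e-06). In controls Pgam1 and Pgk1 were almost equal in reads in each library, with a log2 ratio of 0.01 ± 0.02 (SD, n = 4), while in mutants the ratio was -1.03 ± 0.05 (SD, n = 4). The difference was -1.04 (two-sided exact permutation p = 0.0286, and 0.0286 adjusted over 9 ratios). The muscle isozyme Pgam2 was at 94.8 ± 17.1 in mutants and 76.0 ± 23.6 in controls (SD, n = 4 each, limma adjusted p = 0.43).

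Enolase is represented by a gene that cannot be read alone. Eno1b (ENSMUSG00000059040, chromosome 18 from 48045335 to 48048412) is a near-identical copy, with 2 annotated exons, of Eno1, the ubiquitous alpha-enolase gene with 12 exons on chromosome 4 from 150236721 to 150248879. Of the distinct 50-base words of the annotated Eno1b transcript 75.3% also occur in an Eno1 transcript, and of those of Eno1 70.5% occur in Eno1b. The deposited table gives nearly all of these reads to Eno1b, with Eno1 at 27.7 ± 12.0 normalised reads in mutants and 7.62 ± 2.59 in controls (SD, n = 4 each), and reads of the pair cannot be told apart here. Eno1b had 88014, 81150, 70699 and 87582 normalised reads in mutants 1 to 4, against 30374, 40095, 39468 and 34401 in controls 1 to 4. It rose 2.27-fold (95% interval 1.95 to 2.65, limma adjusted p = 1.75e-05), the smallest rise among the 9. Eno1 itself was called higher (limma adjusted p = 0.0153), but not with mutant 3 left out (0.0573), nor with mutant 2 and either control 2 or control 3 left out (up to 0.0922), and its few reads are uncertain for the same reason.

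The other enolases did not follow. Eno2 (ENSMUSG00000004267, chromosome 6 from 124760053 to 124769673), the gamma-enolase of neurons and neuroendocrine cells, had 142.1, 122.4, 157 and 178.8 normalised reads in mutants 1 to 4, against 218.4, 173.8, 207.7 and 191.2 in controls 1 to 4. Mutant 4 lay above control 2, so the groups overlap. The log2 fold change was -0.40 (SE 0.14, 95% interval -0.71 to -0.10, unadjusted limma p = 0.0139 and adjusted p = 0.105), and the authors' deposited table also leaves Eno2 uncalled (adjusted p = 0.0831). The log2 ratio of Eno2 to Eno1b was -9.09 ± 0.27 in mutants and -7.50 ± 0.30 in controls (SD, n = 4 each, two-sided exact permutation p = 0.0286, and 0.0286 adjusted over 9 ratios). Eno3, the muscle beta-enolase, was at 2095 ± 190 in mutants and 2554 ± 122 in controls (SD, n = 4 each) and was called lower by 0.29 on the log2 scale (limma adjusted p = 0.0299). It did not hold when mutant 2, mutant 3, control 2, control 3 or control 4 was left out (p up to 0.0804 after adjustment), nor in 5 other settings (up to 0.143). Over Eno1b, Eno1, Eno2, Eno3 and Eno4, Eno1b took 97.2% of enolase reads in mutants and 92.7% in controls, and Eno3 2.49% and 6.61%.

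Pkm (ENSMUSG00000032294, chromosome 9 from 59656368 to 59679375), which encodes the M1 and M2 forms of pyruvate kinase by alternative splicing, was the most abundant of the 10 in reads. It had 179961, 195129, 160289 and 187862 normalised reads in mutants 1 to 4, against 47598, 58456, 60605 and 53765 in controls 1 to 4. It rose 3.29-fold (95% interval 2.87 to 3.76, limma adjusted p = 1.93e-07). Gene counts do not separate the splice forms. Of 5 splicing factors known to act on the choice of Pkm exon, 1 rose, 0 fell and 4 were not called: Hnrnpa1 was at 2878 ± 264 in mutants and 2305 ± 122 in controls (SD, n = 4 each, limma adjusted p = 0.02), which did not hold when mutant 3, mutant 4, control 2 or control 4 was left out (p up to 0.0722 after adjustment), nor in 5 other settings (up to 0.17). Ptbp1 was at 32540 ± 2748 in mutants and 34321 ± 2986 in controls (SD, n = 4 each, limma adjusted p = 0.631), and Hnrnpa2b1 and Srsf3 had adjusted p of 0.277 and 0.398. The liver and red cell isozyme Pklr was at 39.9 ± 16.8 in mutants and 33.5 ± 8.43 in controls (SD, n = 4 each, limma adjusted p = 0.768).

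**Figure D2:**
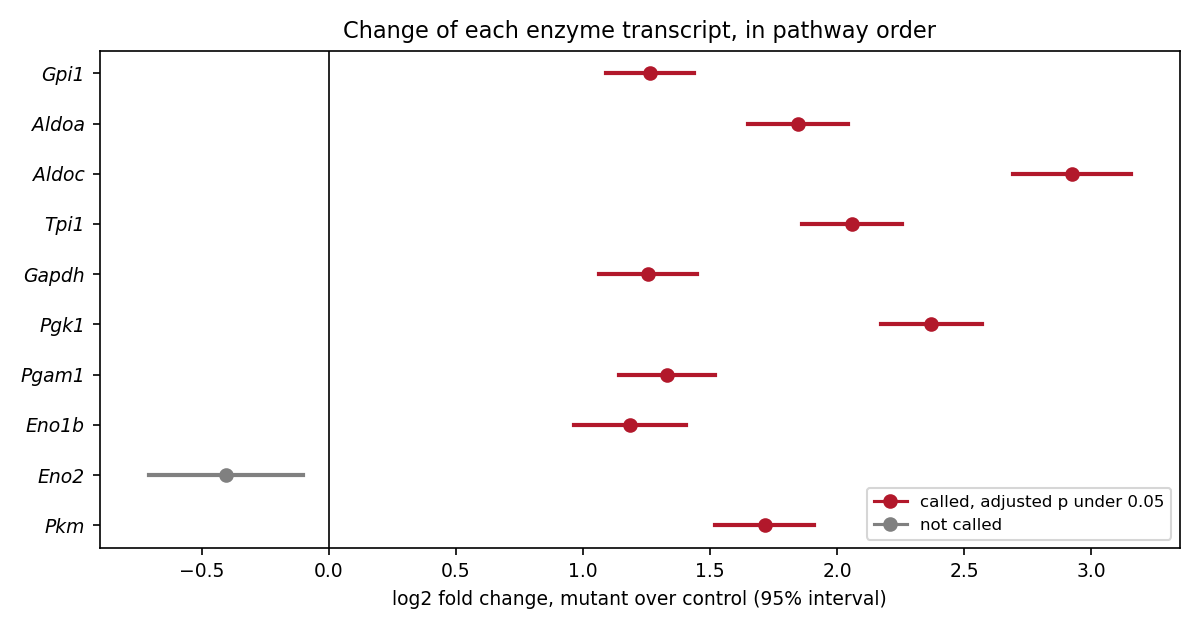
Log2 fold change of each gene, mutant over control, with its 95% interval from limma, from Gpi1 at the top to Pkm at the bottom. The 9 called genes lie between 1.19 (Eno1b) and 2.92 (Aldoc), and Eno2 lies at -0.40.

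The size of the rise did not follow the order of the pathway. Among the 8 main genes, 1 for each step, the rises were 2.40-fold for Gpi1, 3.60-fold for Aldoa, 4.17-fold for Tpi1, 2.39-fold for Gapdh, 5.17-fold for Pgk1, 2.52-fold for Pgam1, 2.27-fold for Eno1b and 3.29-fold for Pkm. Successive members were compared as ratios within a library, of which Gpi1 and Aldoa have the phosphofructokinase step between them. All 7 such ratios separated the groups without overlap, as did the 2 isozyme ratios. How often ratios of other gene pairs do so was not examined, so this count has no background to be read against. Each of the 9 gave a two-sided exact permutation p = 0.0286, the smallest possible with 70 relabellings, and 0.0286 after adjustment over the 9. The difference in log2 ratio was 0.58 for Aldoa over Gpi1, 0.21 for Tpi1 over Aldoa, -0.80 for Gapdh over Tpi1 and 1.11 for Pgk1 over Gapdh. It was -1.04 for Pgam1 over Pgk1, -0.15 for Eno1b over Pgam1 and 0.53 for Pkm over Eno1b. The pairs that differed least, Tpi1 with Aldoa and Eno1b with Pgam1, did not pass 0.05 on the deposited values taken unaltered (exact permutation, adjusted p = 0.171 and 0.0964).

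**Figure D3:**
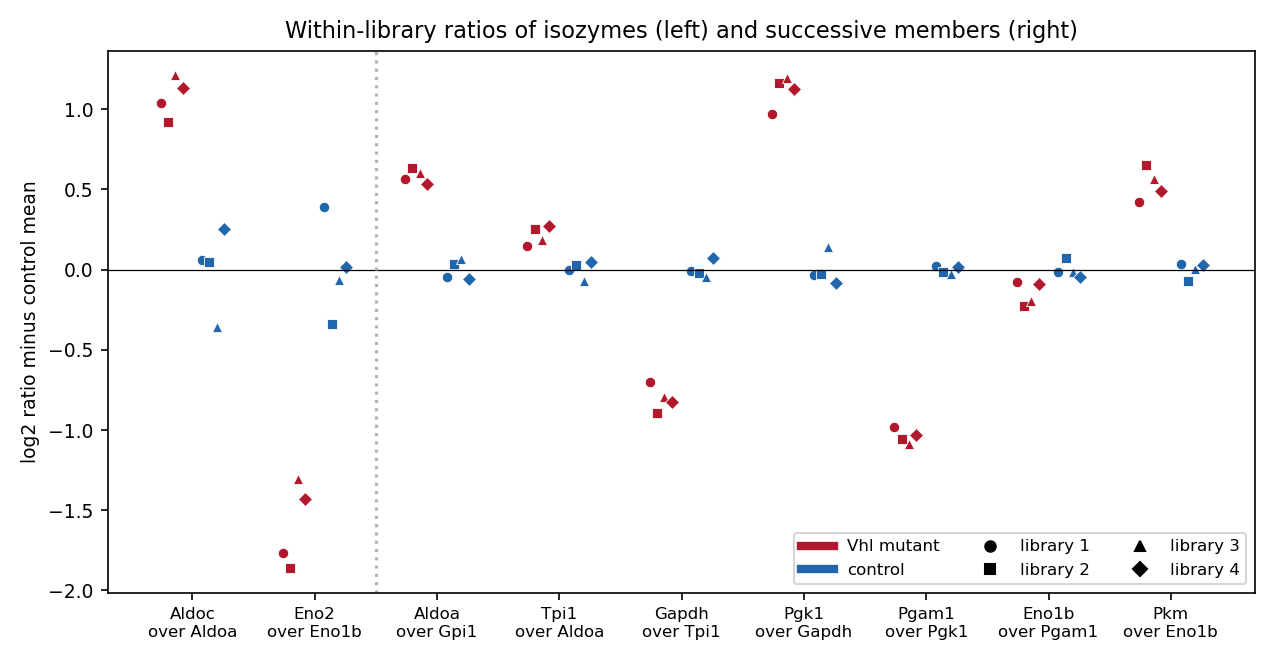
Log2 ratio of pairs of genes within each library, with the mean of the control libraries subtracted, mutants left of controls. Isozyme pairs stand left of the dotted line and successive members right of it; in all 9 pairs the mutant libraries lie on 1 side of all control libraries, from the shift of -1.59 for Eno2 over Eno1b to that of 1.11 for Pgk1 over Gapdh.

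Within a group the abundant members moved together between libraries. Mutant 3 was the lowest mutant library for 8 of the 9 risen genes, with a median deviation of -0.17 on the log2 scale from the group mean, and control 1 was the lowest control library for 8 of 9, with a median deviation of -0.21. The remaining gene in both cases was Aldoc, which was lowest in mutant 2 and in control 3. The ratios of successive members had SDs between 0.04 and 0.10 in mutants and between 0.02 and 0.10 in controls, on the log2 scale. The coefficients of variation of the levels of the 9 genes were between 3.79% and 9.87% in mutants and between 7.78% and 14.3% in controls. Leaving out mutant 3 or control 1 changed no call among the 10 genes.

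Levels can be compared between genes only for a given length, here per kilobase of the principal annotated transcript. In mutants Pkm was highest at 74346 ± 6175 normalised reads per kb, followed by Pgk1 at 66863 ± 3808, and these ranges overlap between libraries (SD, n = 4 each). Eno1b (45707 ± 4509), Gapdh (43733 ± 3830), Aldoa (42637 ± 3434) and Tpi1 (41893 ± 3858) formed a run whose neighbours overlap. Pgam1 at 33681 ± 2364 and Gpi1 at 15295 ± 1290 came next, each apart from its neighbours, and Aldoc and Eno2 were far lower at 393 ± 14.9 and 53.7 ± 8.53. In controls the order was Pkm (22659 ± 2370), Eno1b (20148 ± 2558), Gapdh (18315 ± 1840), Pgam1 (13416 ± 1490), Pgk1 (12986 ± 1637), Aldoa (11878 ± 1362), Tpi1 (10056 ± 1057), Gpi1 (6363 ± 495), Eno2 (70.8 ± 6.97) and Aldoc (51.8 ± 7.41), per kb and with SD over 4 libraries. Control neighbours overlap from Pkm to Gapdh and from Pgam1 to Tpi1. By rank Pgk1 was 2 in mutants and 5 in controls. Aldoc lay above Eno2 in mutants and below it in controls on this length.

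**Figure D4:**
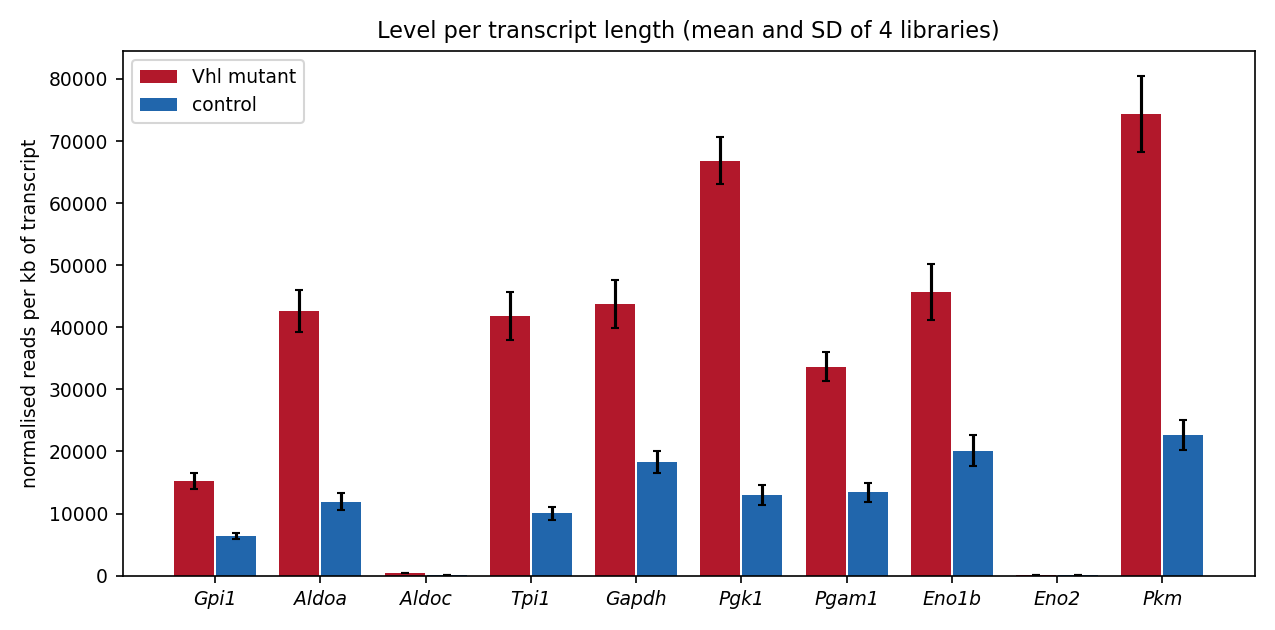
Mean normalised reads per kb of principal transcript, with SD of 4 libraries, mutants left of controls. Pkm and Pgk1 are the highest bars in mutants, and Aldoc and Eno2 are too low to be seen on this linear axis that starts at 0.

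This order depends on the length used and on how reads with several matches were counted. With the union of all annotated exons as the length, a choice added after the data were seen, Pgk1 was first in mutants at 54379 ± 3097 per kb and Pkm had rank 3 at 36155 ± 3003 (SD, n = 4 each), and Eno1b was first in controls. On that length Aldoc lay above Eno2 in both groups, with overlapping ranges in controls (44.3 ± 6.33 for Aldoc and 42.0 ± 4.14 for Eno2, SD, n = 4 each), so their order in controls depends on the length. The transcripts also differ in how much of their sequence recurs elsewhere. The share of distinct 50-base words that occur in a transcript of another gene was highest for Eno1b, at 84.5%, and 82.5% for Gapdh. It was 68.0% for Pgk1, 41.5% for Pgam1, 34.4% for Pkm, 19.3% for Gpi1, 13.9% for Aldoa and 7.5% for Tpi1. Of Aldoc 0 words and of Eno2 1 word did so. Gapdh words were found in transcripts of 218 other genes, and Eno1b words in those of 9, Eno1 among them. The retrocopies Aldoart1 and Aldoart2, named after their values were seen, rose 3.50-fold and 2.89-fold (limma adjusted p = 1.03e-07 and 0.0012), beside 3.60-fold for Aldoa. Aldoart1 holds 6.4% of the words of Aldoa, so values of these copies are uncertain where the counting could split reads. Aldoa, Gapdh, Gpi1 and Tpi1 overlap an annotated gene on the opposite strand, and whether the counting used the strand, which the library kit records, is not stated in the labels. Eno1b and Pkm overlap an annotated gene on their own strand, where the strand cannot separate the reads.

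Eno2, Tpi1 and Gapdh lie on the same strand of chromosome 6 in this order, with 40.9 kb between Eno2 and Tpi1 and 347 kb between Tpi1 and Gapdh. Tpi1 rose 4.17-fold and Gapdh 2.39-fold, while Eno2 was not called.

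The promoter sequences of 9 members were at hand (RefSeq, GRCm38.p6), 13 windows in all of 250 bases before to 50 bases after an annotated start. HIF binds a core of 5 bases in hypoxia response elements, which was searched as ACGTG and GCGTG on both strands. The windows of 4 genes are shown, chosen for the largest rise (Aldoc), the largest rise among abundant members (Pgk1), a risen gene with no match (Tpi1) and the gene without a call (Eno2), with the matches in capitals. They lie at chr11:78322823-78323122 (plus strand), chrX:106186850-106187149 (plus strand), chr6:124814109-124814408 (minus strand) and chr6:124769624-124769923 (minus strand).
Aldoc: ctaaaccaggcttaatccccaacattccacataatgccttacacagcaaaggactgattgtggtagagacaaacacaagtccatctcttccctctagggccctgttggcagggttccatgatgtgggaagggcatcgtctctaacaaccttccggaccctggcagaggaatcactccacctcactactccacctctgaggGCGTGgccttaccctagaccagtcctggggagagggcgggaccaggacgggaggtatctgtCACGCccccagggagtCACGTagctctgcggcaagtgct
Pgk1: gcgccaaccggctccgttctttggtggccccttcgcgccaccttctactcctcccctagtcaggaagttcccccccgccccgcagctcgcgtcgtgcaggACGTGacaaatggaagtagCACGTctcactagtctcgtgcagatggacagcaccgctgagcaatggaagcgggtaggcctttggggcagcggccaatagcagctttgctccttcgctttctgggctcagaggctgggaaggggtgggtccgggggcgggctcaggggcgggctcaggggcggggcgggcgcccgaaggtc
Tpi1: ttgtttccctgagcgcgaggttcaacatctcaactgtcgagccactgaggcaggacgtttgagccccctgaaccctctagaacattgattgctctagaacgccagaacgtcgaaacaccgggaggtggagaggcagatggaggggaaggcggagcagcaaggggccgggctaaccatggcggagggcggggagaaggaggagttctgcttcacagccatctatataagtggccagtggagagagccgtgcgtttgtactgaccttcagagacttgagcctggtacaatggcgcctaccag
Eno2: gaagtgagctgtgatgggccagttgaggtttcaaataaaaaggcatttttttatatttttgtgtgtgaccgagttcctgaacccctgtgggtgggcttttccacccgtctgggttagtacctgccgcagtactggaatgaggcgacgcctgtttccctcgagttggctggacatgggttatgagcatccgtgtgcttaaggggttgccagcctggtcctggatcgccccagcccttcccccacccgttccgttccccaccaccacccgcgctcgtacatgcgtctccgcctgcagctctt
Pgk1 holds ACGTG 150 bases before its start and CACGT, which is ACGTG on the other strand, 131 bases before it. Aldoc holds GCGTG 50 bases before its start, and CACGC and CACGT 11 and 27 bases after it. None of the matches in the windows printed here overlap each other.

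Of the 9 members with a window, 6 had ACGTG in at least 1 window: Aldoa, Aldoc, Gapdh, Pgk1, Pgam1 and Pkm, of which Aldoa and Pkm have it at alternative starts and not at the first listed one. The windows of Gpi1, Tpi1 and Eno2 held neither word, although Gpi1 and Tpi1 rose. Of the 13 windows 7 held ACGTG and 8 held either word, against 24.2% and 59.8% of 14508 windows of tested genes, and 19.6% and 43.8% of all 32851 windows. These shares are per window and not per gene, and a gene with several windows has more chances of a match. Windows of 1 gene can overlap, and the Aldoa windows with ACGTG overlap and hold the same site. The words are short, so a match describes the sequence and does not show binding.

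Genes of the remaining steps of glycolysis, phosphofructokinase among them, were also compared. Of 14 genes for glucose entry, the hexokinase and phosphofructokinase steps, lactate dehydrogenase and monocarboxylate transport, 13 were tested, of which 9 rose, 0 fell and 4 were not called, with a median log2 fold change of 1.87. Slc2a3, a glucose transporter, rose 12.6-fold (limma adjusted p = 1.35e-10) and Pfkp, the platelet phosphofructokinase, 11.9-fold (3.34e-10). Pfkl rose 3.45-fold (1.21e-07), close in size to Aldoa, the next enzyme of the pathway, and Ldha rose 4.18-fold (2.65e-07). Pfkm, Ldhb, Slc16a1 and Adpgk were not called.

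Of 9 other isozymes of the same steps, 8 were tested, of which Eno1 rose, Eno3 fell and 6 were not called. Besides those given above, the sperm isozyme Gapdhs was at 212 ± 7.67 in mutants and 197 ± 12.0 in controls, and Bpgm, which makes 2,3-bisphosphoglycerate, at 1189 ± 59.9 and 1219 ± 65.8 (SD, n = 4 each; limma adjusted p = 0.551 and 0.792). Eno4 was at 59.9 ± 10.2 in mutants and 63.4 ± 9.88 in controls (SD, n = 4 each, limma adjusted p = 0.84).

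Enzymes that draw on the intermediates of this stretch did not rise. Of 10 such genes limma called 0 risen and 1 fallen, with a median log2 fold change of -0.09. Without adjustment, 0 higher and 2 lower genes had a p under 0.05. Gpd1l, a glycerol-3-phosphate dehydrogenase-like enzyme at the dihydroxyacetone phosphate branch, was at 1275 ± 90.7 in mutants and 1792 ± 126 in controls (SD, n = 4 each) and fell by 0.49 on the log2 scale (limma adjusted p = 0.00126). The transaldolase gene Taldo1 was at 4307 ± 507 in mutants and 5217 ± 377 in controls (SD, n = 4 each, limma adjusted p = 0.0762), with an adjusted p between 0.0418 and 0.194 when 1 library was left out, under 0.05 without mutant 1 or control 1, and also under it with total count scaling and in the authors' deposited table (0.0277). Tkt and Gpd2 had adjusted p of 0.253 and 0.288. Of 7 genes of gluconeogenesis, which runs the reversible steps of this stretch backwards, limma called 0, and 0 passed an unadjusted p under 0.05; the smallest adjusted p were 0.302 for Pck2, 0.379 for Pcx, 0.425 for G6pc and 0.789 for G6pc3.

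**Figure D5:**
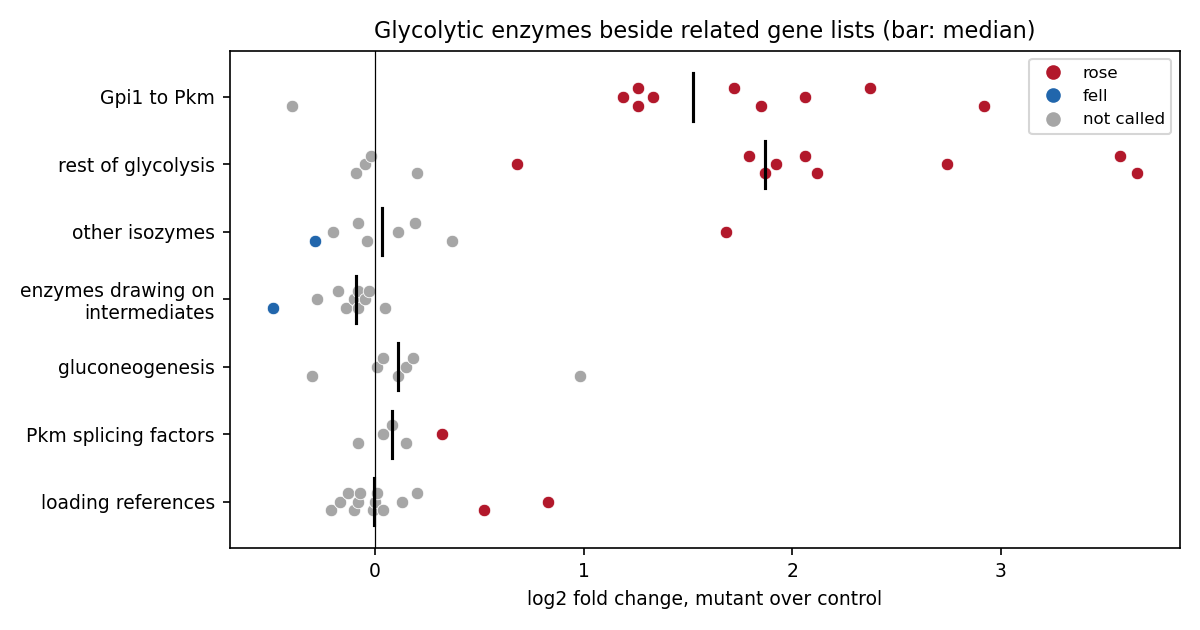
Log2 fold change, mutant over control, of each tested gene in 7 lists, with the median of each list as a bar; colours mark called rises, called falls and genes not called. The medians are 1.52 for the stretch from Gpi1 to Pkm and 1.87 for the rest of glycolysis, and lie between -0.09 and 0.11 for the other lists.

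Gapdh and Pgk1 are widely used as loading references in expression assays. Of 14 other genes used in this way, 2 rose, 0 fell and 12 were not called, with a median log2 fold change of -0.01. The risen genes were Hprt, at 3942 ± 121 normalised reads in mutants and 2216 ± 73.9 in controls (SD, n = 4 each, limma adjusted p = 9.06e-07), and Tfrc, the transferrin receptor gene (1.43-fold, limma adjusted p = 0.00103). Sdha and Gusb had adjusted p of 0.0636 and 0.0676, and passed 0.05 without control 1 (0.0368 for Sdha) or without mutant 3 (0.0492 for Gusb), and both did with total count scaling. The authors' deposited table calls both (adjusted p = 0.00139 for Sdha and 0.0216 for Gusb) and Ywhaz as well (0.00469). Actb, Tbp, Ppia, Rplp0, B2m, Ywhaz, Rpl13a and Polr2a were among the other genes not called by limma. The rises of Gapdh (2.39-fold) and Pgk1 (5.17-fold) exceed that of each of these 14 genes.

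The genes outside the stretch whose pattern over the 8 libraries was most like the median pattern of the 10 members were Mif, Grhpr, Plod1, Egln1 and Galk1. Likeness was measured as the root mean square difference of log2 values centred on each gene's mean, over 12210 genes with a mean of at least 100 normalised reads, and it was 0.065, 0.068, 0.089, 0.107 and 0.114 for these 5. Mif, a cytokine with tautomerase activity, had 34975, 31509, 28784 and 32133 normalised reads in mutants 1 to 4, against 9536, 11926, 12691 and 11504 in controls 1 to 4. Mutant 3 and control 1 were the lowest of their groups for Mif, as for 8 of the members. Mif was picked for its likeness over these same libraries, so this is not a separate result. Plod1 was lowest in mutant 3 and in control 4 (1979 normalised reads, against 1990 in control 1). Grhpr encodes glyoxylate reductase, Plod1 a collagen lysyl hydroxylase, Egln1 the prolyl hydroxylase that modifies HIF alpha subunits, and Galk1 galactokinase.

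Genes that mark other cells of the kidney or of other tissues were also compared, since isozymes differ between cell types. In bulk libraries fewer cells of a type and less RNA per cell cannot be told apart. Markers of neurons and glia, which are known for Eno2 and Aldoc, summed to between 1300 and 1861 normalised reads in mutants and between 1250 and 1612 in controls, with 0 of 7 tested markers called and S100b under the filter, so this list did not move with Aldoc. Markers of skeletal muscle, known for Eno3 and Pgam2, summed to between 6677 and 7871 in mutants and between 7133 and 8979 in controls, almost all of it Des, with Myod1, Myog, Ckm and Myh3 under the filter. The podocyte list summed to between 949 and 2303 in mutants and between 1375 and 7252 in controls, and the endothelial list had 1 of 8 (Plvap) higher, at sums between 1805 and 2349 in mutants and between 1332 and 2442 in controls. Plvap was not called without mutant 4 (limma adjusted p = 0.053), nor without mutant 2 and control 3 (0.0599). None of 8 stroma, 7 leukocyte, 6 tubule, 6 ureteric bud and 2 tested erythroid markers were called by limma, while the authors' deposited table calls Wnt11 of the ureteric bud list (adjusted p = 0.0394). Haemoglobin Hba-a1 was at 0 in 3 mutant libraries and in each control library. The part of podocyte and endothelial RNA in the results above was not tested.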

How the data were processed

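RNA sequencing libraries of sorted nephron progenitor cells were analysed, 4 mutant and 4 control, grouped by title. STAR 2.5.3a, DESeq2 1.18.1 and mm10 are named, per the submitters' processing notes. For the read counter, annotation and strand setting, nothing is stated in the labels. Judged from its values, the deposited signal per library is reads per gene divided by size factors, divided a second time by the same factors recycled down the genes, and rounded. The file headers do not state this. This was undone: whole reads rebuilt the deposited mean (relative tolerance 1e-09) for all 20254 genes, whereas without the second division 0 of the 11635 genes that reach 100 in every library were rebuilt. No count model was run. The deposited table also holds the authors' log2 fold changes and adjusted p-values, used as an alternative, and a Wald score, not used.

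The test took genes reaching 10 normalised reads in 4 or more libraries and was run on log2(normalised reads + 1) with limma 3.58.1 (R 4.3.3; trend and robust settings, all libraries, no covariate), with two-sided p-values adjusted by Benjamini-Hochberg over all tested genes and a call under 0.05. Ratios had exact permutation tests. The code was tested on simulated data. Fold changes are limited mainly by the spread between libraries, and for Eno2 and Aldoc also by counting. Transcript lengths, overlaps and 50-base words come from GENCODE M21 (mm10). Members, lists and alternatives were chosen with earlier results of these data known. Named were all members, Vhl, isozymes, up to 4 genes per list with the smallest adjusted p, and the 5 genes nearest in pattern; others were named after their values were seen. Other scalings, filters, a pseudocount of 10, limma-voom, a replicate block and left-out libraries were tried. A few genes of the lists are not reported here by name.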

Additional observations from a re-analysis of the deposited data

Results flagged for a closer look

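A library stood apart from the other 3 of its group, by the gap to its nearest neighbour as a share of the range, for 4 of 110 groups examined among the named genes and ratios; chance flags about 1 in 20. Among the members this was Pgam1, where mutant 3 had 53561 normalised reads, against 61291 to 62736 in the other mutants. Mutant 3 was also the lowest mutant library for 7 other risen members, and Pgam1 kept its call without it. The muscle isozyme Pgam2 had 40.7 normalised reads in control 3, against 84.4 to 89.4 in the other controls. Sdha, listed as a loading reference, was flagged in both groups, with 11300 in mutant 2, against 10758 to 10779 in the other mutants, and 11693 in control 1, against 12413 to 12440 in the other controls.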

How the results depend on the processing

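The 9 rises among the 10 genes kept their direction and call in each of 19 other settings, and Eno2 stayed uncalled in each, with a log2 fold change between -0.49 and -0.29. With 1 library left out the log2 fold change was between 2.86 and 2.99 for Aldoc, 2.29 and 2.43 for Pgk1 and 1.11 and 1.25 for Eno1b. The largest adjusted p of any of the 9 in any setting was 0.000731, for Eno1b. The background count of called genes was less stable. It was 1297 (831 risen, 466 fallen), and 698 (538 and 160) on the deposited values taken unaltered, 764 (541 and 223) without mutant 2 and control 3, and 662 (487 and 175) without mutant 2 and control 2; the causes were not tested. Fallen genes numbered 839 with total count scaling, which moved the median of all genes by -0.02 and the split to 754 risen and 839 fallen, and 810 in the authors' deposited table. With 1 library left out it ranged from 774 (without mutant 4) to 1565 (without control 1), with 541 to 913 risen and 231 to 652 fallen, and it was 816 without control 4. The count of fallen genes was 279, 233, 263 and 231 without mutant 3, mutant 4, control 2 and control 4, and that of risen genes 541 without mutant 4. With the replicate number as a block it was 766 (550 and 216), but the numbers do not pair the libraries: deviations of same-numbered libraries correlated between -0.144 and 0.213, and not every library correlated best with its own number. On the deposited values taken unaltered, the shift in the ratio of Tpi1 over Aldoa was 0.21 (adjusted p = 0.171) and that of Eno1b over Pgam1 was -0.15 (0.0964); the values then carry the second division, which differs between genes. With 1 library or a pair of libraries left out, the ratios were read as values only, and no p-value is given for them. Depth does not limit the abundant members, while Eno2 and Aldoc rest on far fewer reads.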
